A study of Homo sapiens with 24 samples.

Results

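The human topoisomerase genes TOP1, TOP1MT, TOP2A, TOP2B, TOP3A and TOP3B and the tyrosyl-DNA phosphodiesterase genes TDP1 and TDP2 were followed across RNA-seq libraries of U87-T cells with and without DAXX or ATRX. They were taken by gene symbol, as a named family, and all 8 were found among the 57736 genes of the count table. U87-T is the U87 glioblastoma line carrying a TERT transgene, and every group shares it. The DAXX series and the ATRX series each held WT and knockout (KO) cells in control and in etoposide, with 3 libraries in each of the 8 groups and 24 libraries in all. The WT cells of both series are the parental U87-T control, and DAXX_KO and ATRX_KO are each 1 CRISPR clone that survived long passage with ALT-like features. The study's methods describe the control as carrying an empty Cas9 lentivirus vector. DAXX_KO was made by transfection of sgRNA pairs followed by selection in puromycin. Clone, genotype and this handling therefore cannot be told apart. Control cells are labelled untreated in the titles, and neither the dose nor the time of etoposide is given for these libraries in the sources used here. The study's reporting summary describes its experiments in general as biological replicates. How the 3 libraries of a group were grown is not given in the sources used here, so the tests measure the spread between libraries.

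Topoisomerases pass DNA strands through transient breaks in which an active-site tyrosine is joined to the DNA end. Type I enzymes (TOP1, its mitochondrial relative TOP1MT, and the type IA enzymes TOP3A and TOP3B) cut a single strand, and type II enzymes (TOP2A and TOP2B) cut both strands of a duplex. TOP2A is made by dividing cells and is needed to untangle chromosomes at mitosis, whereas TOP2B is also present in non-dividing cells, where it acts at transcribed genes. Etoposide stabilizes the TOP2A and TOP2B cleavage complexes and so turns them into breaks blocked by protein. TDP1 removes tyrosine from 3′ ends, the end that TOP1 holds, and TDP2 removes it from 5′ ends, the end that TOP2A and TOP2B hold.

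In the GENCODE annotation lifted to GRCh37, TOP1 (ENSG00000198900) lies at 20:39657462-39753127 on the plus strand and TDP1 (ENSG00000042088) at 14:90421283-90511108 on the plus strand. The other members lie on the minus strand, TOP1MT (ENSG00000184428) at 8:144386554-144442149, TOP2A (ENSG00000131747) at 17:38544777-38574148, TOP2B (ENSG00000077097) at 3:25639469-25706400 and TOP3A (ENSG00000177302) at 17:18174742-18218321. TOP3B (ENSG00000100038) lies at 22:22311397-22337210 and TDP2 (ENSG00000111802) at 6:24650207-24667158. Each value below is for the whole gene, as 1 count per gene was given.

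Libraries held 6928950 to 13298557 counts, and the members had between 45 (TDP2) and 29262 (TOP2A) counts in a library. All 8 passed the filter on low counts in both series. Levels are given as CPM, counts scaled to a common library total, with trimmed-mean scaling over all 24 libraries, and a gene is called when its adjusted p from edgeR's quasi-likelihood test, fitted over all genes, is under 0.05. QuantSeq reads come from the 3′ ends of transcripts, so CPM values of 1 gene are compared between groups and not between genes. In control cells, DAXX mRNA was 33.5 to 35.9 CPM in WT and 4.69 to 6.72 CPM in DAXX_KO of the DAXX series, and ATRX mRNA was 184 to 194 CPM in WT and 74.99 to 85.8 CPM in ATRX_KO of the ATRX series. With etoposide, DAXX mRNA was 21.0 to 22.8 CPM in WT and 7.39 to 11.4 CPM in DAXX_KO of the DAXX series. ATRX mRNA with etoposide was 166 to 176 CPM in WT and 60.0 to 79.0 CPM in ATRX_KO of the ATRX series. The genotype tag of the DAXX_KO libraries reads ATRX KO, while their titles and their DAXX mRNA give DAXX KO. Of the glioma and mesenchymal markers, VIM (at least 1201 CPM) and CD44 (at least 343 CPM) were high. FN1 was at 101 to 814 CPM, NES at 18.8 to 88.8 CPM, CHI3L1 at most 7.80 CPM and SOX2 at most 4.53 CPM. The astrocyte markers GFAP, S100B and AQP4 reached no more than 6 counts in any library. The epithelial markers EPCAM and CDH1, the immune markers PTPRC and AIF1 and the endothelial marker VWF stayed at or under 2.64 CPM, whereas the immune marker CD68 was at 17.5 to 40.7 CPM. The endothelial marker PECAM1 was not matched by symbol. Of the neuron markers, SYT1 was at 10.1 to 36.8 CPM and RBFOX3 at most 2.99 CPM, and of the oligodendrocyte lineage markers, MBP was at 4.44 to 22.4 CPM and OLIG2 at most 1.66 CPM.

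TOP2A fell steeply with etoposide in every genotype. In WT cells of the DAXX series it was 2101, 2239 and 2150.1 CPM in control and 101, 109 and 99.5 CPM in etoposide, a log2 fold change of -4.36 ± 0.06 (SE), or 20.5-fold lower (adjusted p = 2.09e-20). In WT cells of the ATRX series it was 2245, 2305 and 2281 CPM in control and 145, 157 and 141 CPM in etoposide, a log2 fold change of -3.93 ± 0.08 and 15.2-fold lower (adjusted p = 7.74e-16). No etoposide library came near any control library of its series. In the knockouts the control libraries were lower to begin with, and the etoposide libraries sat at the same low level as in WT or just under it. DAXX_KO went from 1735, 1738 and 1672 CPM in control to 106, 104 and 111 CPM (log2 fold change -3.99 ± 0.06, adjusted p = 8.67e-20). ATRX_KO went from 1985, 1959 and 1876 CPM to 119.8, 132 and 117 CPM (log2 fold change -3.99 ± 0.08, adjusted p = 9.4e-16). RNA from a bulk culture cannot separate fewer cells of a kind from less RNA in each cell, and this holds for every level given here.

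The DNA before the TOP2A start site is shown because it has several copies of short promoter elements. It is set beside those of TDP1, which also fell, of TOP2B, the other etoposide target, and of TOP3B, which rose. The part of these elements in any change was not tested. These are the 250 bases upstream of the RefSeq start in GRCh38.p14, the build of the sequence table (the counts use GRCh37), read 5′ to 3′ on the strand of the gene. Windows of 7 of the 8 members were searched, and TOP1MT was left out. The TOP2A window is chr17:40417897-40418146 (minus strand), the TDP1 window chr14:89955677-89955926 (plus strand), the TOP2B window chr3:25664908-25665157 (minus strand, the outer of the 2 starts listed) and the TOP3B window chr22:21982788-21983037 (minus strand). Capitals mark CCAAT, the CCAAT box, and TTTGAA, the core of the cell-cycle homology region, on either strand.
TOP2A: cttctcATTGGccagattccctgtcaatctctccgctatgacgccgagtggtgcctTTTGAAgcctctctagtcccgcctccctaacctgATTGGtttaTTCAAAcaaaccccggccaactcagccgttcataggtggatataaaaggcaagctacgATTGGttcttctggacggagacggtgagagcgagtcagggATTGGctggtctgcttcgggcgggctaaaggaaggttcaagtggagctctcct
TDP1: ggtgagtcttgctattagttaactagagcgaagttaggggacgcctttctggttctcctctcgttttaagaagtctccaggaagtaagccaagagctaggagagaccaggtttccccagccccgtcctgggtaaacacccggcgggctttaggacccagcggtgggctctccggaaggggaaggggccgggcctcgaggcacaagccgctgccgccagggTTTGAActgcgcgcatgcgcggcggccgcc
TOP2B: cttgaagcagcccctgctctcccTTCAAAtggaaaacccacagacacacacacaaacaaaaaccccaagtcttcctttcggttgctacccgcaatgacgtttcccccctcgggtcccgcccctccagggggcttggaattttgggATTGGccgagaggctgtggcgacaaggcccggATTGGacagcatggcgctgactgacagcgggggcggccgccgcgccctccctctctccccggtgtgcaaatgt
TOP3B: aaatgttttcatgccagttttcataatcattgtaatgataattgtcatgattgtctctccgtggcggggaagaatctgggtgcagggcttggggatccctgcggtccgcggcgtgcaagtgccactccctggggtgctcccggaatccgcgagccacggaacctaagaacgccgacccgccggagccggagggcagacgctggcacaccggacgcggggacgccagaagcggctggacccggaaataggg
TOP2A held 4 copies of CCAAT, all as ATTGG on the strand shown, and 2 copies of TTTGAA. Of 35116 windows of 250 bases in the table, 32.01% held CCAAT at least once, 9.53% held it 2 or more times and 0.874% held it 4 or more times. TTTGAA was held by 13.3% of windows at least once and by 1.72% of windows 2 or more times. TDP1 held 1 TTTGAA at -30 to -25 from the start and no CCAAT. The TOP2B window held 2 CCAAT and 1 TTTGAA, while that of TOP3B held neither. Among the windows not printed, that of TOP3A held 1 GGCGGGAA, an E2F-type element found in 2.72% of windows, and those of TOP1, TDP2 and the inner TOP2B start held none of the 3 motifs. A match is only a description of these letters.

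TDP1 was the other member that fell severalfold. In the DAXX series WT cells had 29.7, 30.9 and 27.6 CPM in control and 7.34, 9.21 and 8.0 CPM in etoposide, a log2 fold change of -1.81 ± 0.12, or 3.52-fold lower (adjusted p = 1.28e-10). In the ATRX series they had 29.3, 29.3 and 30.5 CPM and then 8.71, 8.36 and 10.3 CPM, a log2 fold change of -1.68 ± 0.12 (adjusted p = 2.41e-09). The groups stood well apart in both series. TDP1 fell by 1.79 on the log2 scale in DAXX_KO and by 1.55 in ATRX_KO (adjusted p = 3.64e-10 and 1.28e-08), where etoposide libraries ranged from 6.78 to 9.67 CPM. TDP2, the enzyme that acts on the ends held by TOP2A and TOP2B, was at 11.4 to 12.6 CPM in WT control cells of the DAXX series and 6.10 to 10.1 CPM with etoposide, with log2 fold changes of -0.45 (95% interval -0.88 to -0.02, adjusted p = 0.0688) in the DAXX series and -0.26 (-0.63 to 0.11, adjusted p = 0.217) in the ATRX series. TDP2 had the fewest counts of the 8, so its intervals were wide and a fall of up to 0.88 lay within that of the DAXX series. There TDP2 passed the threshold without the filter (adjusted p = 0.0373), with only the groups compared (0.0339) or without WT etoposide library 1 (-0.60, adjusted p = 0.0389), and ran from -0.60 to -0.26 as each library was left out. With etoposide the summed level of 17 G2/M genes went from 5409.5 to 5539.95 CPM down to 717 to 759.9 CPM (WT cells, DAXX series) and from 5778 to 5899.6 CPM down to 967 to 1016 CPM in the ATRX series. It moved with TOP2A and TDP1, and its part in their fall was not tested.

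TOP2B fell less than TOP2A. WT cells of the DAXX series had 76.3, 67.4 and 68.3 CPM in control and 42.0, 36.1 and 39.3 CPM in etoposide, a log2 fold change of -0.83 ± 0.09, or 1.77-fold lower (adjusted p = 1.85e-07). WT cells of the ATRX series had 67.0, 60.8 and 67.2 CPM and then 33.0, 36.9 and 31.2 CPM, a log2 fold change of -0.93 ± 0.09, or 1.90-fold lower (adjusted p = 1.85e-07). Again no library overlapped the other group. The fall in DAXX_KO was 1.89-fold and in ATRX_KO 1.52-fold (adjusted p = 3.79e-08 and 2.42e-05). Because TOP2A fell so much further, the ratio of TOP2A to TOP2B counts within a library dropped from 27.5 to 33.2 in WT control cells of the DAXX series to 2.41 to 3.03 with etoposide, and from 33.5 to 37.9 to 4.25 to 4.51 in the ATRX series. The mean change of the log2 ratio was -3.27 over the WT cells of both series (two-sided exact permutation test within series, p = 0.005, the smallest that the 400 arrangements allow), and 1 series alone could not reach below 0.1. In the knockouts the ratio was 17.3 to 24.03 in control and 1.92 to 2.50 in etoposide. The ratio compares conditions, since 3′ counts do not give the relative number of molecules of different genes.

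**Figure D1:**
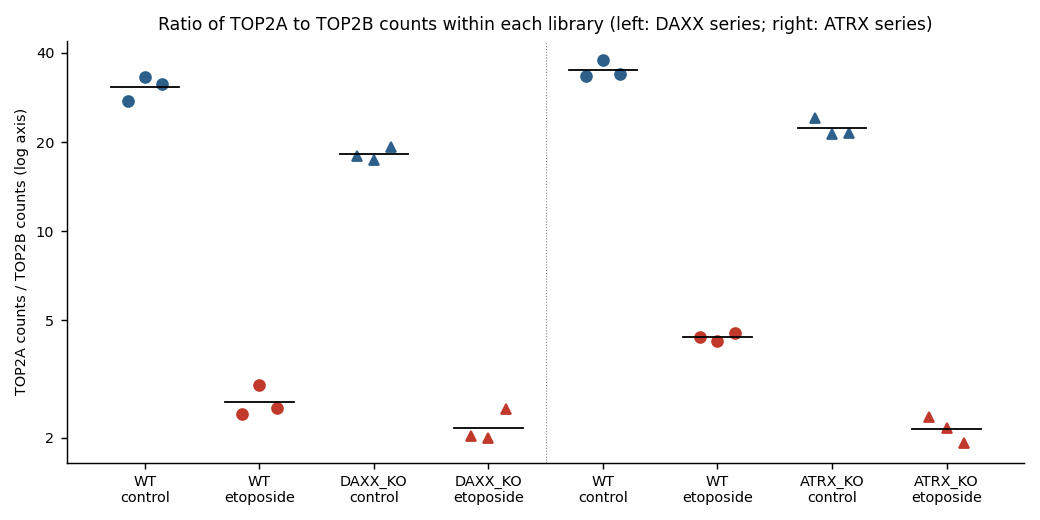
Ratio of TOP2A to TOP2B counts in each of the 24 libraries (log axis), with control in blue, etoposide in red, WT as circles, knockouts as triangles and the geometric mean of 3 libraries as a bar. Control libraries sit between 17.3 and 37.9 and etoposide libraries between 1.92 and 4.51, with knockout control libraries below the WT control libraries of their series.

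TOP3B was the member that rose. TOP3B is a type IA enzyme that also acts on RNA. It had 9.58, 13.9 and 12.9 CPM in WT control cells of the DAXX series and 20.7, 21.1 and 19.9 CPM with etoposide, a log2 fold change of 0.80 ± 0.16, or 1.74-fold higher (adjusted p = 0.000207). In the ATRX series it had 16.9, 13.8 and 17.2 CPM and then 22.3, 23.9 and 22.0 CPM, a log2 fold change of 0.53 ± 0.14 (adjusted p = 0.00327). Every etoposide library was above every control library of its series. The rise was 2.31-fold in DAXX_KO, from 6.97 to 9.65 CPM up to 15.03 to 20.6 CPM (adjusted p = 5.27e-06), and 1.55-fold in ATRX_KO, from 17.4 to 21.0 CPM up to 25.0 to 35.7 CPM (adjusted p = 0.000857). The antisense gene PPM1F-AS1 overlaps the 3′ end of TOP3B and had 0.489 to 5.08 CPM, highest in ATRX_KO with etoposide. Whether counting used the strand is not given in the sources used here, so reads of this pair may not be separable.

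In WT cells TOP1 was lower with etoposide in the DAXX series and was not called in the ATRX series, and neither TOP1MT nor TOP3A was called in WT cells of either series. TOP1, the main nuclear type IB enzyme, was 472, 477 and 499 CPM in WT control cells of the DAXX series and 406, 395 and 398 CPM with etoposide, a log2 fold change of -0.25 ± 0.06, or 1.19-fold lower (adjusted p = 0.000839). These groups did not overlap. In WT cells of the ATRX series it was 456 to 474 CPM and 438 to 448 CPM, with a log2 fold change of -0.05 (95% interval -0.19 to 0.09, adjusted p = 0.511). The difference between the series, -0.20, did not pass the test (adjusted p = 0.189). TOP1MT, which relaxes mitochondrial DNA, gave 0.27 (0.01 to 0.52, adjusted p = 0.0641) and -0.02 (-0.32 to 0.28, adjusted p = 0.895) in the DAXX and ATRX series. The former passed the threshold with at least 10 counts in every library (adjusted p = 0.0267) or with only the groups compared (0.0333). TOP3A, which dissolves joined DNA molecules together with BLM, gave -0.13 (-0.43 to 0.16) and 0.02 (-0.27 to 0.30), with adjusted p values of 0.441 and 0.922.

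Counted over the family, 5 of 8 members were called for the etoposide effect in WT cells of the DAXX series, 1 higher and 4 lower, beside 60.3% of 15247 genes tested (30.1% higher and 30.2% lower). In the ATRX series 4 of 8 were called, 1 higher and 3 lower, beside 61.5% of 16371 genes (31.7% higher and 29.8% lower). In the knockouts 4 of 8 were called in DAXX_KO (54.7% of all genes) and 5 of 8 in ATRX_KO (49.5%). These shares lay near those of all genes, so the counts do not set the family apart. Its median log2 fold change was -0.35 and -0.15 in WT cells of the DAXX and ATRX series, against 0.03 and 0.07 over all genes. TOP2A, TOP2B and TDP1 were lower and TOP3B was higher in all 4 comparisons of etoposide with control.

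**Figure D2:**
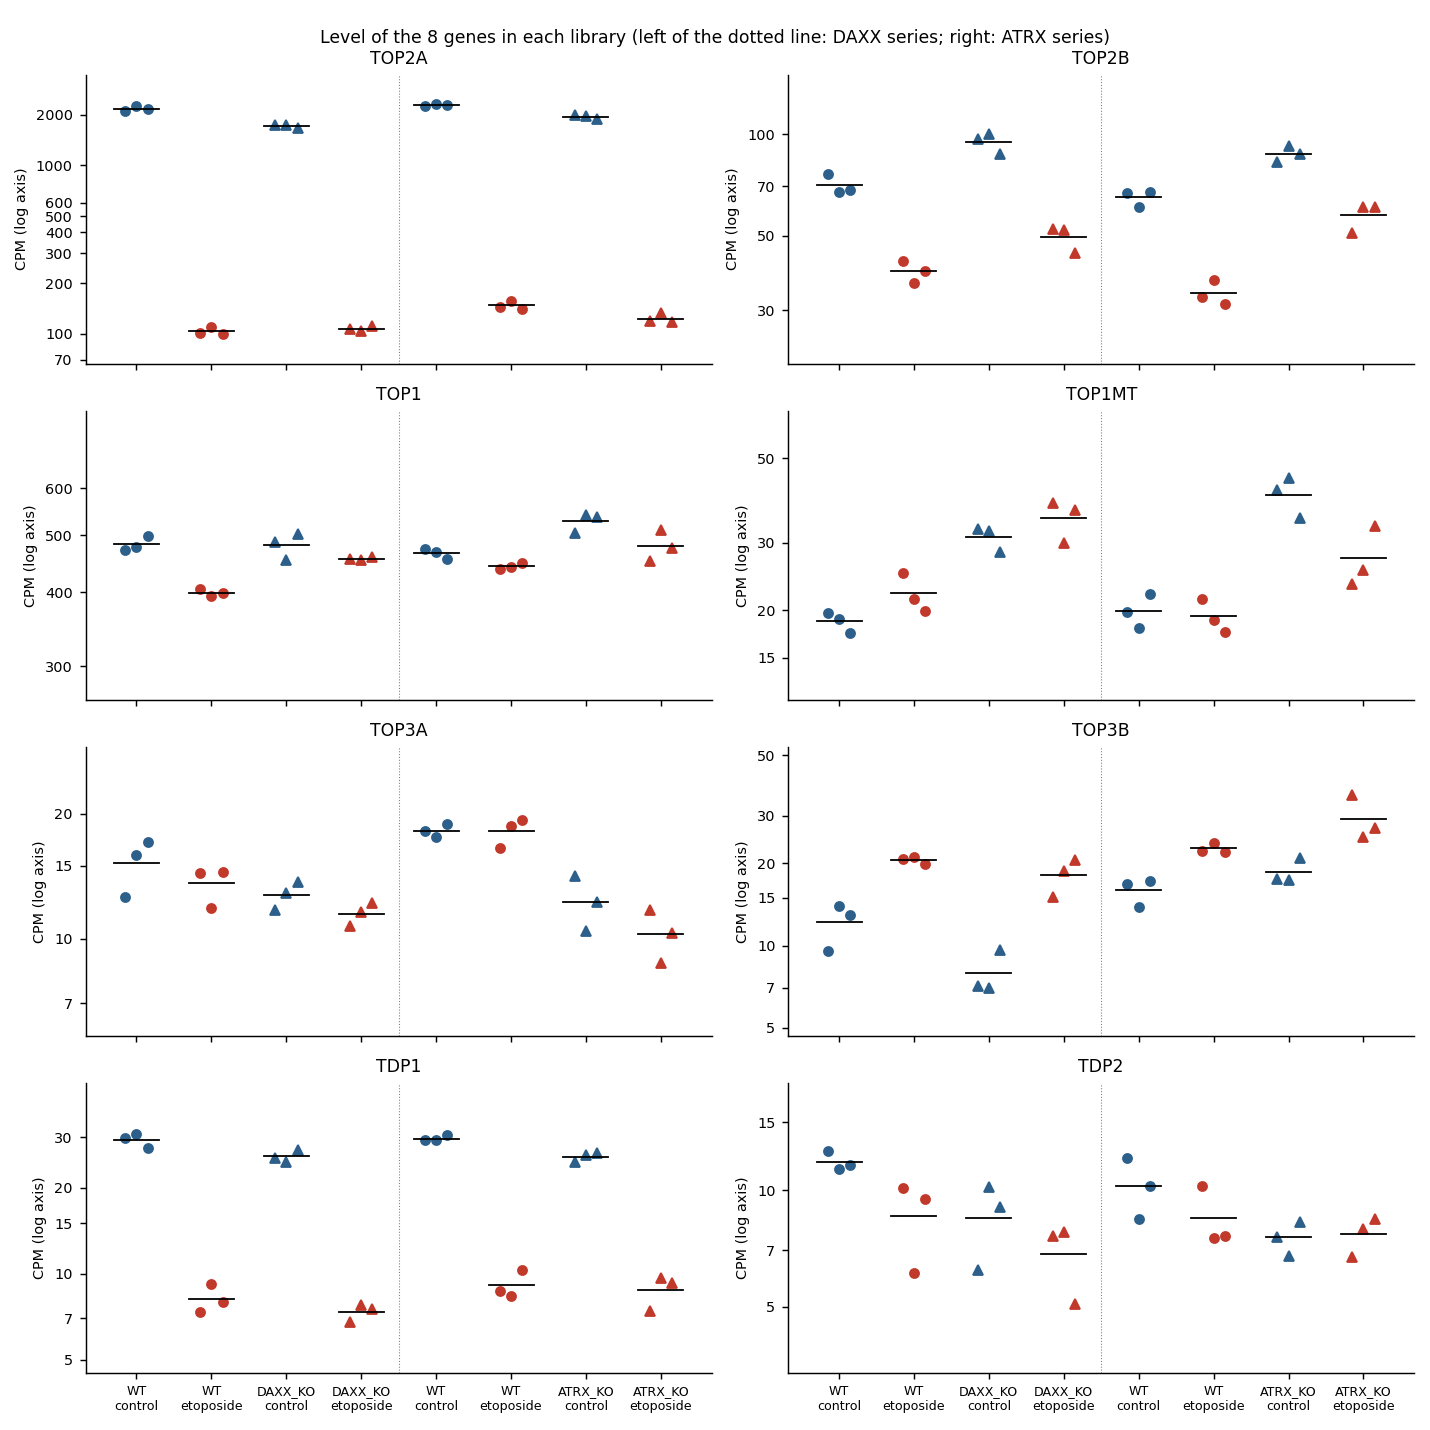
Level of each of the 8 genes in all 24 libraries, in CPM on a log axis, with control in blue, etoposide in red, WT as circles, knockouts as triangles and the mean of 3 libraries as a bar. TOP2A and TDP1 drop in every red group, TOP2B drops less, TOP3B rises, and TOP1MT is higher in both knockouts than in WT, at 28.5 to 44.4 CPM against 17.5 to 22.0 CPM in control.

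Loss of DAXX or ATRX in control cells left smaller differences, and TOP1MT showed the largest rise among the members. It was 19.7, 19.0 and 17.5 CPM in WT and 32.5, 32.2 and 28.5 CPM in DAXX_KO, a log2 fold change of 0.73 ± 0.12, or 1.66-fold higher (adjusted p = 3.01e-05). It was 19.8, 18.0 and 22.0 CPM in WT and 41.2, 44.4 and 34.8 CPM in ATRX_KO, a log2 fold change of 1.01 ± 0.13, or 2.02-fold higher (adjusted p = 1.23e-05). Neither knockout group overlapped its WT group. The 60 tested genes nearest to TOP1MT on its chromosome were at 0.25 and 0.23 by median in the same comparisons, and their part in the result was not tested.

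TOP2B was also higher in both knockouts, at 96.5, 100.2 and 87.1 CPM in DAXX_KO (log2 fold change 0.42 ± 0.09, 1.34-fold, adjusted p = 0.00034) and 82.6, 92.0 and 87.4 CPM in ATRX_KO (0.43 ± 0.09, 1.35-fold, adjusted p = 0.000855), above all WT control libraries given earlier. TOP2A went the other way, 1.26-fold lower in DAXX_KO (log2 fold change -0.33 ± 0.06, adjusted p = 4.23e-05) and 1.17-fold lower in ATRX_KO (-0.23 ± 0.07, adjusted p = 0.0125), and no knockout control library reached a WT control library of its series. With library totals as the only scaling the ATRX_KO value became -0.17 (adjusted p = 0.0613). The summed level of the G2/M genes was 3657 to 3757 CPM in DAXX_KO and 3982 to 4314 CPM in ATRX_KO control cells, below WT in both series. It moved with TOP2A here too, and its part was not tested.

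Each topoisomerase III gene was called in the control cells of 1 clone. TOP3B was 7.12, 6.97 and 9.65 CPM in DAXX_KO control cells against 9.58, 13.9 and 12.9 CPM in WT, a log2 fold change of -0.60 ± 0.18, or 1.52-fold lower (adjusted p = 0.00705), with 1 knockout library just above the lowest WT library. In ATRX_KO it was 17.6, 17.4 and 21.0 CPM against 16.9, 13.8 and 17.2 CPM, a log2 fold change of 0.23 (95% interval -0.06 to 0.53, adjusted p = 0.202). The knockout effects differed between the series by -0.83 ± 0.23 (adjusted p = 0.00643). TOP3A was 14.2, 10.4 and 12.3 CPM in ATRX_KO against 18.2, 17.6 and 18.9 CPM in WT, a log2 fold change of -0.56 ± 0.14, or 1.48-fold lower (adjusted p = 0.00311), and the groups did not overlap. The 60 tested genes nearest to TOP3A, at 17:18174742-18218321 (GRCh37), were at -0.56 by median in the same comparison, and TOP3A lay 0.0016 from that. In DAXX_KO the values were -0.24 (-0.54 to 0.05, adjusted p = 0.16) for TOP3A and -0.21 for its neighbours. The difference between the series for TOP3A was not called (0.32 ± 0.19, adjusted p = 0.219).

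TOP1 was 487, 455 and 501 CPM in DAXX_KO control cells, within the spread of WT (log2 fold change -0.00, 95% interval -0.12 to 0.12, adjusted p = 0.987), while its 60 nearest tested genes had a median of 0.44. With library totals as the only scaling, which moved the median of all genes in this comparison by 0.18, TOP1 was at 0.18 with an adjusted p of 0.00748. In ATRX_KO it was 505, 541 and 536 CPM, 1.14-fold above WT (0.18 ± 0.07, adjusted p = 0.0331), a call that was lost without WT control library 1, 2 or 3 or ATRX_KO control library 2 or 3 (adjusted p of 0.0528 to 0.124), with relative log expression scaling (0.0518) or without the filter on low counts (0.115). TDP1 and TDP2 were not called in either clone, although their knockout and WT control groups did not overlap. In control cells of the ATRX series the groups of all 8 members stood apart, called or not. The share of all genes with groups that stand apart is not given here, so this separation does not set a member apart. TDP1 gave -0.19 (-0.41 to 0.03) and -0.20 (-0.43 to 0.02), and TDP2 gave -0.48 (-0.92 to -0.05, adjusted p = 0.0564) and -0.44 (-0.81 to -0.07, adjusted p = 0.0538) in DAXX_KO and ATRX_KO. TDP2 passed the threshold in DAXX_KO with relative log expression scaling (adjusted p = 0.0397), without the filter (0.026), with only the groups compared (0.0269) or without DAXX_KO control library 2 (0.0333), and in ATRX_KO with that scaling (0.0464) or without WT control library 2 (0.028). In all, 4 of 8 members were called in DAXX_KO control cells, 2 higher and 2 lower, beside 53.4% of all genes (26.9% higher and 26.5% lower), and 5 of 8 in ATRX_KO, 3 higher and 2 lower, beside 41.8% (20.8% higher and 21% lower).

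Etoposide-treated knockout and WT cells were compared in the same way. TOP2A was 106, 104 and 111 CPM in DAXX_KO against 101, 109 and 99.5 CPM in WT, groups that overlapped (log2 fold change 0.04, 95% interval -0.09 to 0.17, adjusted p = 0.61). In ATRX_KO it was 119.8, 132 and 117 CPM against 145, 157 and 141 CPM, all below WT (log2 fold change -0.29 ± 0.07, adjusted p = 0.00282). TOP2B stayed higher in both clones, at 52.5, 52.1 and 44.4 CPM in DAXX_KO (0.33 ± 0.09, adjusted p = 0.0054) and 51.0, 60.9 and 60.9 CPM in ATRX_KO (0.75 ± 0.09, 1.68-fold, adjusted p = 5.28e-06). TOP1MT was also higher in both, by 0.65 ± 0.11 in DAXX_KO (adjusted p = 9.2e-05) and 0.48 ± 0.14 in ATRX_KO (adjusted p = 0.00908). The latter passed the threshold no longer without WT etoposide library 3 (adjusted p = 0.0516) or ATRX_KO etoposide library 3 (0.064). TOP3A was at 11.7, 8.73 and 10.3 CPM in ATRX_KO against 16.5, 18.7 and 19.3 CPM in WT (-0.85 ± 0.14, adjusted p = 8.86e-05), and its 60 neighbours had a median of -0.68. TOP1 was 1.13-fold higher in DAXX_KO (0.18 ± 0.06, adjusted p = 0.0102), less than the median of 0.47 of its neighbours, and was at an adjusted p of 0.0518 without the filter on low counts. TOP3B was 35.7, 25.0 and 27.0 CPM in ATRX_KO against 22.3, 23.9 and 22.0 CPM in WT, groups that did not overlap, and was just short of the threshold (0.33 ± 0.13, adjusted p = 0.0524). It passed with library totals alone (0.43, adjusted p = 0.0133), with 3 other settings (0.0369 to 0.047) and without ATRX_KO etoposide library 2 (0.0229) or 3 (0.0456). Thus 3 of 8 members were called in DAXX_KO with etoposide (53% of all genes) and 4 of 8 in ATRX_KO (45.9%).

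**Figure D3:**
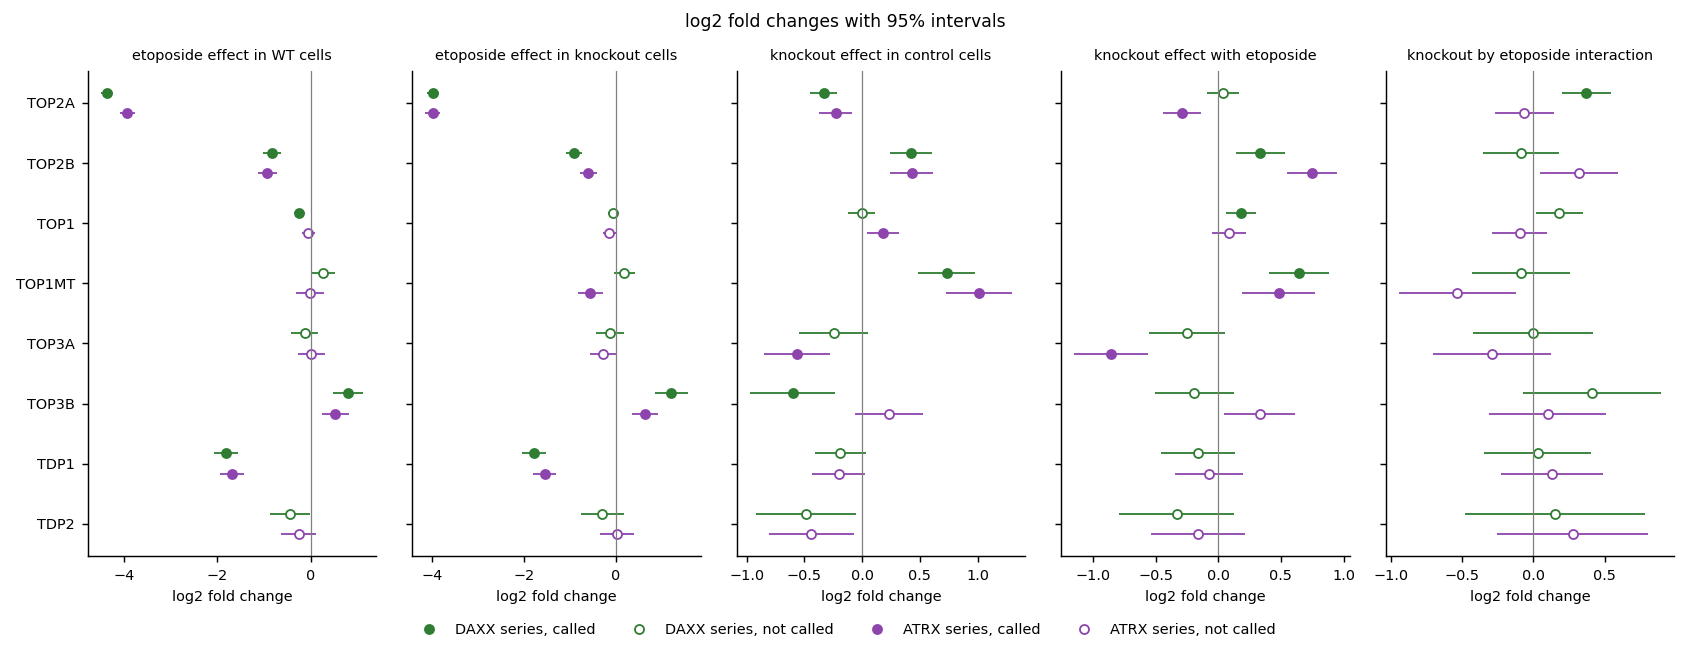
log2 fold changes of the 8 genes with 95% intervals in 5 comparisons, with the DAXX series in green, the ATRX series in purple and called values filled. TOP2A lies near -4 for etoposide in every genotype, TOP1MT and TOP2B lie to the right of 0 for both knockouts, and TOP2A in the DAXX series is the only filled point in the interaction panel, at 0.37.

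The interaction term asks whether etoposide moved a gene by a different amount in knockout and WT cells. In the DAXX series TOP2A was the only member called by edgeR (1 of 8, beside 14.1% of all genes, 8.18% higher and 5.9% lower). Its log2 fold changes of -4.36 in WT and -3.99 in DAXX_KO differed by 0.37 ± 0.08 (adjusted p = 0.00453). As described above, the control level was lower in DAXX_KO while the etoposide levels overlapped. The response of WT cells in the ATRX series was -3.93. The WT responses differed between the series by -0.44, a larger amount than this interaction. TOP1 also had an unadjusted p under 0.05 (0.18 ± 0.08, adjusted p = 0.137 by edgeR). DESeq2 called 2 members, TOP2A and TOP1 (adjusted p = 0.0221 for TOP1). In the ATRX series 0 of 8 members were called by edgeR (16% of all genes). 2 members, TOP1MT and TOP2B, had an unadjusted p under 0.05, and DESeq2 called 0. TOP1MT fell by 0.56 with etoposide in ATRX_KO (adjusted p = 0.002), from 41.2, 44.4 and 34.8 CPM to 23.5, 25.5 and 33.3 CPM, and was at -0.02 in WT, and the difference, -0.53 ± 0.19, had an adjusted p of 0.0721. This TOP1MT difference passed the threshold without the filter on low counts (adjusted p = 0.0313). It also passed without ATRX_KO control library 3 (0.0336) or ATRX_KO etoposide library 3 (0.0143). TOP2B fell less in ATRX_KO than in WT by 0.32 ± 0.13 (adjusted p = 0.104), and passed without ATRX_KO etoposide library 1 (0.0291). The other members of the ATRX series lay between -0.29 and 0.28.

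WT cells of the DAXX and ATRX series carry the same genotype and give a measure of the difference between the series themselves. In control, 0 of 8 members were called by edgeR between the WT groups (13.2% of all genes), 1 member, TOP3B, had an unadjusted p under 0.05 and DESeq2 called 0. The members' log2 differences ran from -0.40 (TOP3B, adjusted p = 0.0957) to 0.21 (TDP2). ATRX, which is not a member, was called higher in WT control cells of the DAXX series (0.30 ± 0.08, adjusted p = 0.0135). The etoposide response of WT cells differed between the series for TOP2A, at -0.44 ± 0.08 (adjusted p = 0.00425), 1 of 8 members beside 3.15% of all genes. Its etoposide levels were 99.5 to 109 CPM in the DAXX series and 141 to 157 CPM in the ATRX series. The knockout effect in control cells differed for TOP3B alone (1 of 8, beside 34.1% of all genes). The difference between the interactions was called for 0 of 8 members by edgeR (3% of all genes), with 3 at an unadjusted p under 0.05 and 2, TOP1 and TOP2A, called by DESeq2. TOP2A had 0.42 ± 0.12 there (adjusted p = 0.0527), which passed the threshold with relative log expression scaling (0.048), with a replicate block (0.044) or without 1 of 5 single libraries (0.0242 to 0.0456). Differences between the series hold the knocked-out gene, the clone and whatever else separated the series, and these cannot be told apart.

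The partners of these enzymes were followed as 5 gene lists. Of all genes, 30.2% (DAXX series) and 29.8% (ATRX series) were called lower with etoposide in WT cells. All 17 G2/M genes were called lower with etoposide in WT cells of both series, with median log2 fold changes of -3.76 (DAXX series) and -3.21 (ATRX series). All 11 chromosome structure genes, the condensin and cohesin subunits and CTCF, were called lower too, with medians of -2.05 and -1.85. TOP2A lay beyond the median of the G2/M list in both series. The values that follow are log2 fold changes ± SE in the DAXX and then the ATRX series. Among the G2/M genes, PLK1, a mitotic kinase, was at -4.76 ± 0.10 and -4.21 ± 0.10, and CDC20, an activator of the anaphase-promoting complex, at -4.84 ± 0.10 and -4.95 ± 0.13. AURKB, the kinase of the chromosomal passenger complex, was at -3.99 ± 0.11 and -3.76 ± 0.08 and the mitotic cyclin CCNB1 at -3.00 ± 0.10 and -2.73 ± 0.08. The condensin subunits NCAPH and NCAPG were at -4.48 ± 0.11 and -3.72 ± 0.11 and at -3.19 ± 0.12 and -2.63 ± 0.10. The cohesin subunits RAD21 and STAG1 were at -1.73 ± 0.07 and -1.85 ± 0.07 and at -2.10 ± 0.09 and -2.18 ± 0.08. In control cells 13 of 17 G2/M genes were called lower in DAXX_KO (26.5% of all genes) and 13 of 17 in ATRX_KO (21% of all genes), and 0 higher in either. In the DAXX series the interaction was called higher for 9 of the 17 (8.18% of all genes) and lower for 0 (5.9%), the direction that TOP2A showed. In the ATRX series it was called for 4 of the 17, 3 higher and 1 lower, beside 16% of all genes. The median interaction of the list in the DAXX series was 0.44. The WT response to etoposide differed between the series by a similar amount, with a median of -0.43 (DAXX series minus ATRX series). That difference was called lower for 6 of the 17 and higher for 0, beside 3.15% of all genes called in either direction.

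The partners of topoisomerase III (BLM, RMI1, RMI2, TDRD3 and FMR1) did not follow TOP3B. All 5 were called lower with etoposide in WT cells of both series (30.2% and 29.8% of all genes). Their medians were -0.94 and -1.62, while TOP3B was higher and TOP3A was not called. RMI1 and RMI2, which form the dissolvasome with TOP3A and the helicase BLM, were at -1.88 ± 0.15 and -2.24 ± 0.13 and at -2.85 ± 0.20 and -2.57 ± 0.22. BLM itself was at -0.94 ± 0.15 and -1.62 ± 0.12. FMR1, an RNA-binding partner of the TOP3B complex, was at -0.85 ± 0.09 and -1.15 ± 0.10.

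The list for repair of cleavage complexes and DNA-protein crosslinks moved in both directions. Of its 17 genes, 7 were called higher and 9 lower in the DAXX series (median -0.29) and 7 and 8 in the ATRX series (median 0.14), again in WT cells. Of all genes, 60.3% (DAXX series) and 61.5% (ATRX series) were called there in either direction. RBBP8, the resection factor CtIP, was at -1.86 ± 0.09 and -1.87 ± 0.09. FAM111A, a protease that acts on protein crosslinks at forks, was at -1.27 ± 0.08 and -1.24 ± 0.07, and PARP1 at -1.24 ± 0.10 and -1.26 ± 0.11. APTX, which removes adenylate from aborted ligation products, was at 0.90 ± 0.09 and 0.94 ± 0.08. Of the 10 end joining genes, which rejoin the broken ends, 3 were called higher and 5 lower in each series. The higher and lower shares of all genes were 30.1% and 30.2% (DAXX series) and 31.7% and 29.8% (ATRX series). The Ku subunits XRCC5 and XRCC6 were at -1.64 ± 0.08 and -1.60 ± 0.08 and at -0.94 ± 0.07 and -1.03 ± 0.07, and PRKDC, the kinase that Ku recruits, at -1.17 ± 0.09 and -1.03 ± 0.09. POLL, a gap-filling polymerase, was at 1.07 ± 0.12 and 1.2 ± 0.12. The list genes named here were picked from each list for the smallest adjusted p values in these same comparisons. Their adjusted p values, at most 1.76e-05 in both series, are low by that choice and are no test of the lists.

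**Figure D4:**
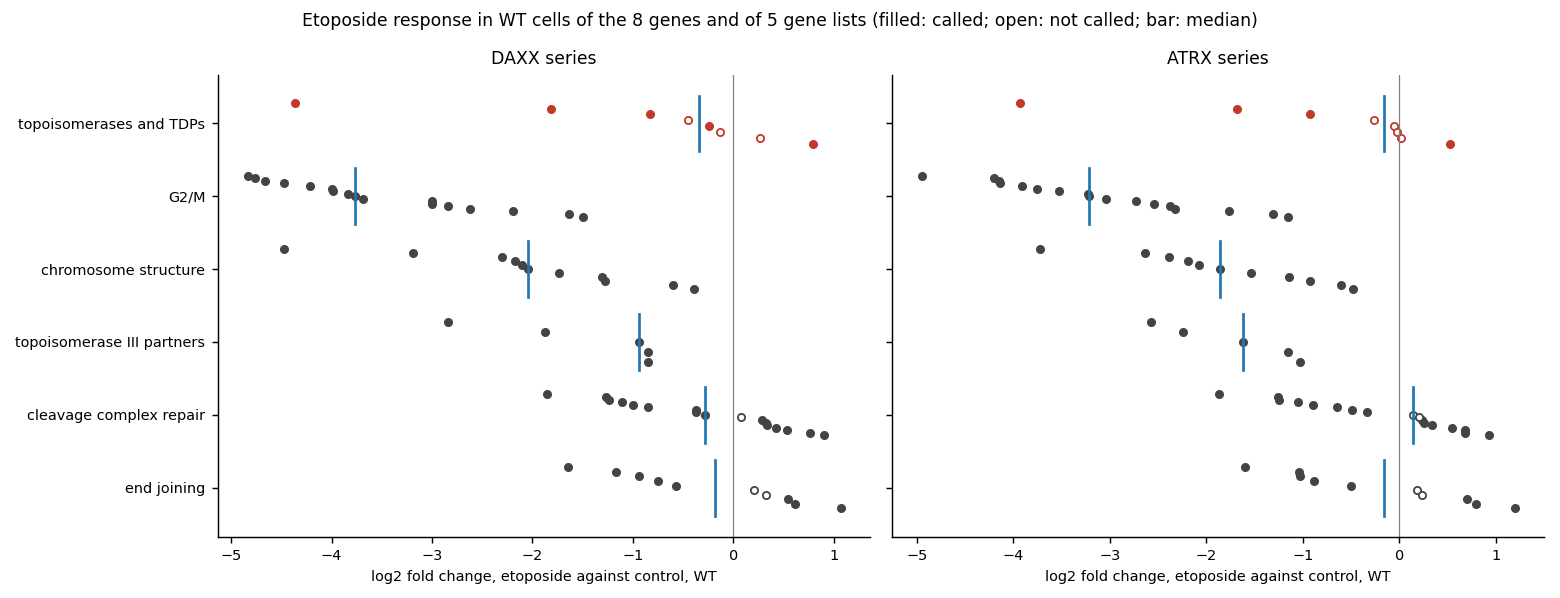
log2 fold changes, etoposide against control in WT cells, of the 8 topoisomerase and TDP genes (red) and of 5 gene lists (grey), filled where called, with the median of each row as a blue bar. The G2/M, chromosome structure and topoisomerase III partner genes all lie below 0, while the members and both repair lists spread over both sides of 0.

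Across all 24 libraries, with each series centred on its own mean, the likeness of other genes to each member was given as Pearson's r of log2 CPM over 11035 genes. The libraries share the treatment and genotype groups, so these values describe the shape of the profile and carry no p. TOP2A was most like PLK1 (r = 0.997), the motor protein KIF4A (0.996) and the chromosomal passenger subunit CDCA8 (0.996), and 983 genes had r of at least 0.9 with it. TDP1 was most like HJURP, the CENP-A chaperone (0.996), the checkpoint kinase BUB1 (0.992) and SHCBP1 (0.992), with 955 genes at 0.9 or more. TOP2A and TDP1 had r = 0.99 with each other. TOP2B was most like the choline transporter gene SLC44A1 (0.981), URI1 (0.974) and TRAF3 (0.974). TOP3B was most like the proteasome gene PSMD8 (0.931), ZPR1 (0.914) and CDC37 (0.913), and ran against TOP2A (r = -0.82). TOP1 was most like SPTLC3 (0.949), TFRC (0.917) and NEDD4L (0.891), TOP1MT like EEIG1 (0.911), HEBP1 (0.908) and TPD52L2 (0.904), TOP3A like MED15 (0.889), CDC42EP1 (0.885) and PTTG1 (0.882), and TDP2 like ATPSCKMT (0.809), CHROMR (0.786) and TRMT5 (0.778).

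Ordered by mean level over the 8 groups, TOP2A had the 4 control groups on top, from WT of the ATRX series (2277 ± 30.6 CPM, SD, n = 3) through WT of the DAXX series (2163 ± 69.6) and ATRX_KO (1939.8 ± 56.9) to DAXX_KO (1715 ± 37.2), and no neighbours among them overlapped. The lowest neighbours, DAXX_KO with etoposide (107 ± 3.67 CPM) and WT of the DAXX series with etoposide (103 ± 5.27 CPM), did overlap. TDP1 had the same split, with control groups at 25.7 to 29.7 CPM and etoposide groups at 7.37 to 9.12 CPM by mean. TOP2B was highest in DAXX_KO control (94.6 ± 6.75 CPM) and lowest in WT of the ATRX series with etoposide (33.7 ± 2.88 CPM). TOP3B ran from ATRX_KO with etoposide (29.2 ± 5.68 CPM) to DAXX_KO control (7.91 ± 1.51 CPM). TOP1MT ran from ATRX_KO control (40.1 ± 4.86 CPM) to WT control of the DAXX series (18.7 ± 1.12 CPM), with each neighbour in the order overlapping the next. TOP3A (10.3 to 18.2 CPM by mean) and TDP2 (6.83 to 11.9 CPM) also had overlapping neighbours throughout. TOP1 spanned the narrowest range in relative terms, from 399.5 ± 5.54 CPM in WT of the DAXX series with etoposide to 527 ± 19.4 CPM in ATRX_KO control.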

How the data were processed

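RNA from 24 libraries of U87-T cells was measured by QuantSeq 3′ sequencing on a NextSeq 500. The authors aligned single-end reads with STAR to hg19 and estimated counts per Ensembl gene with RSEM, and the deposited expected counts are whole numbers, with no normalization. The RSEM version is given differently by the sources and was left out. 55501 of 57736 gene IDs matched a symbol and held 98.8% of counts. Library totals ran from 6928950 to 10410014 counts (DAXX series) and from 10124817 to 13298557 (ATRX series), so genes with few counts carry wider intervals. Each pair of replicate libraries differed by more than sampling noise (chi-square per degree of freedom at least 2.16 over 24 pairs).

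Groups followed the titles. Genes passed edgeR's filterByExpr (minimum count 10, minimum total 15), and libraries were scaled by the trimmed mean of M values. edgeR 4.0.16 quasi-likelihood tests (R 4.3.3) were fitted to the 12 libraries and 4 groups of each series, and to all 24 libraries for differences between the series, with Benjamini-Hochberg adjustment over all genes tested at 0.05. The standard error is the log2 fold change divided by the root of F. Alternatives were relative log expression scaling, library totals alone, no filter, a strict filter, DESeq2 1.42.0, fits over all 24 libraries or over the groups compared only, a replicate block, centring on the 60 nearest genes and leaving out each library. The scripts were tested on simulated data. The TOP2A to TOP2B ratio used an exact permutation test. Members and lists were chosen with earlier results of these data known. Named were the 8 members, DAXX and ATRX, from each list the 4 genes with the smallest larger adjusted p for etoposide in WT cells over both series, and for each member the 3 genes of highest Pearson's r (mean of at least 5 CPM, 0.5 CPM added, each series centred). Promoter windows and motifs came from RefSeq sequences.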

Additional observations from a re-analysis of the deposited data

Results flagged for a closer look

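TOP2A in the DAXX series responded differently to etoposide in knockout and WT cells by a test of the difference itself (interaction 0.37 on the log2 scale, adjusted p = 0.00453 by edgeR's quasi-likelihood test). Its response in WT cells also differed between the DAXX and ATRX series, by -0.44 (adjusted p = 0.00425), a larger amount than the interaction. The TOP2A response was -4.36 in WT cells of the DAXX series, -3.93 in WT cells of the ATRX series and -3.99 in each knockout. The knockout effect on TOP3B in control cells differed between the series by -0.83 (adjusted p = 0.00643).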

How the results depend on the processing

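Of the results for single members under an alternative, 1216 were counted as unchanged, with direction and side of the threshold kept. Centring on neighbouring genes gave no p, and there unchanged means a small move relative to the standard error. With that centring 36 others moved by more, and an uncalled value could change sign in either count. In 39 further cases a member passed the threshold only under the alternative with its direction kept, and in 11 it passed no longer. A turned sign was counted in 44 cases, for values that had not been called and for 2 called ones under centring on neighbouring genes (TOP1 and TOP3A). The causes were not tested. In the DAXX series, TOP1 in knockout control cells was at 0.18 with library totals alone (adjusted p = 0.00748), 0.019 with a filter of 10 counts in every library and -0.029 to 0.038 without single libraries, and TOP1 with etoposide was at -0.29 against its neighbours. For the DAXX interaction, TOP3A was at 0.014 with relative log expression scaling, 0.010 without the filter, 0.0094 with all 24 libraries, 0.020 with DESeq2 and -0.090 to 0.12 without single libraries. TDP1 was at -0.077 with library totals and -0.035 to 0.13 without single libraries, where TDP2 ran from -0.044 to 0.33 and TOP1MT from -0.15 to 0.025. In the ATRX series, TOP3A in knockout control cells was at 0.0016 against its neighbours. For etoposide in WT cells, TOP1 was at 0.016 with the strict filter, TOP1MT at 0.0095 with library totals, 0.04 with the strict filter and -0.11 to 0.04 without single libraries, and TOP3A at -0.024 without the filter, -0.0051 with all 24 libraries and -0.024 to 0.082 without single libraries. TDP2 in ATRX_KO with etoposide against control was at -0.015 without the filter and -0.060 to 0.10 without single libraries. TDP1 in ATRX_KO against WT with etoposide was at 0.026 with library totals and -0.14 to 0.032 without single libraries. Without single libraries the ATRX interaction ran from -0.11 to 0.0074 for TOP2A and from -0.061 to 0.21 for TOP3B.

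Counts of members called moved in these cases. DESeq2 called 2 for the DAXX interaction, 2 for the difference in knockout effect (1 to 2 without single libraries) and 2 for the difference between interactions. The ATRX interaction gave 1 without the filter and 0 to 1 without single libraries. The WT groups of the series gave 1 with library totals. The difference between interactions gave 1 with relative log expression scaling, 1 with the replicate block (TOP2A 0.42, adjusted p = 0.044) and 0 to 1 without single libraries. Over all genes, that difference called 500, and 752 without the filter or 766 with DESeq2. Without single libraries the WT groups differed in 1106 to 1695 genes (2206 with all) and their etoposide response in 281 to 484 (526 with all). Same-numbered libraries correlated at -0.216 to 0.0487, so the numbers did not pair them, and the block changed no other call of a member.

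Library totals alone raised the higher share of called genes from 50.3% to 66.2% in DAXX_KO control cells and from 50.1% to 60.2% in ATRX_KO with etoposide, and lowered it from 58.1% to 37.01% for the DAXX interaction. Differences between the series split 665 higher and 1604 lower for WT control, 157 and 341 for the WT response, 3553 and 2114 for the knockout effect and 207 and 383 for the interaction. They were 1002 and 1204, 237 and 289, 2827 and 2866, and 320 and 180 with trimmed-mean scaling. DESeq2 split the WT response 430 and 348.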
